A study of Mus musculus with 30 samples.

Results

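The genes of the structural proteins of central myelin were followed in the striatum and the subventricular zone (SVZ) of mice whose endogenous neural precursor cells had been ablated. The 9 genes are Mbp, Mobp, Mal, Pllp, Cldn11, Cnp, Mag, Mog and Opalin. They were chosen as a named protein group, with earlier results of these data known, out of 50508 genes in the striatum table and 53278 in the SVZ table, and all 9 passed the filter on low counts in each tissue. In the striatum all 9 had lower estimates in ablated mice than in the controls, as did 49.5% of all genes tested. The median log2 fold change of the 9 was -0.63. Mag, Mal and Pllp passed an adjusted p-value of 0.05, which 0.182% of all genes did. In the SVZ the 9 estimates were also below 0, as were those of 51.9% of all genes, and the median of the 9 was -0.29. None passed by edgeR at the adjusted threshold, which 0.00611% of genes did. At an unadjusted p-value of 0.05, 1 of the 9 was lower, against 6.09% of genes.

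The ablated group was 5 NestinTK+GCV+ mice (libraries A1 to A5). These carry a thymidine kinase transgene under the second intron of the rat Nestin promoter and received ganciclovir (GCV), so that dividing Nestin-expressing cells are killed. The 10 controls were 3 NestinTK-GCV+ mice (G1 to G3), which are wild type and received GCV, 3 NestinTK-PBS+ mice (P1 to P3), wild type with the vehicle PBS, and 4 NestinTK+PBS+ mice (T1 to T4), transgenic with PBS. All were on the C57Bl/6 strain, and the study's methods give adult mice of both sexes aged 6 to 8 weeks and a treatment of 4 weeks by subcutaneous pump. Each mouse gave 1 library per tissue, and a name such as T4 stands for the same mouse in both tissues. Mouse numbers fall into a lower and a higher series, and the series went with the groups: the higher one held 5 of 5 ablated mice, 2 of 3 G, 0 of 3 P and 3 of 4 T mice. The promoter is not restricted to the SVZ, and no sex was given per mouse.

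Myelin is the lipid-rich membrane that oligodendrocytes wrap around axons. In compact myelin, Mbp holds the cytoplasmic faces of the wraps together, Mobp is a small basic protein of the same membrane, Mal and Pllp (plasmolipin) are tetraspan proteolipids that associate with myelin lipids, and Cldn11 forms the tight junction strands between lamellae. Outside compact myelin, Cnp is a phosphodiesterase of the cytoplasmic channels, Mag is an adhesion molecule on the innermost wrap facing the axon, Mog is an immunoglobulin-family protein on the outermost surface, and Opalin is a sialylated membrane protein of the oligodendrocyte. In the striatum, myelin lies mainly in the fibre bundles that cross it, and the SVZ borders the white matter above the ventricle.

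Counts of a striatum library summed to 2626962 to 3371033 in ablated mice and 2780471 to 4693441 in controls, and those of an SVZ library to 8360810 to 9595103 and 8947137 to 21056005. The 9 genes held 0.141% to 0.174% of the counts of an ablated striatum library and 0.185% to 0.377% of a control one. In the SVZ, the share was 0.145% to 0.339% against 0.205% to 0.698%. In the ablated SVZ, 8 of 9 neuroblast genes had lower estimates by edgeR, as did 51.9% of all genes. Of the 9, 6 were lower at an unadjusted p-value of 0.05, against 6.09% of genes, and 0 passed the adjusted one. Igfbpl1, a neuroblast gene, was at 0.0952 ± 0.102 CPM (SD, n = 5) against 14.0 ± 13.0 (SD, n = 10). CPM are normalised read counts scaled by library size. The study picked out Igfbpl1 from these same SVZ data, so its level is no independent check of the ablation. The labels call the SVZ samples neural precursor cells, but the SVZ libraries held tissue, with 4412 to 13934 CPM summed over 10 spiny neuron genes in the ablated mice and 5269 to 11251 in the controls. Several libraries stood apart. The choroid plexus gene Ttr took 4.49%, 9.88% and 9.83% of the counts of P1, P2 and T1 in the SVZ, and 0.142% of striatum T4, where the next highest striatum library had 0.00300%. Striatum T4 also held 4641 CPM of spiny neuron genes, where all other striatum libraries held at least 8980.

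The 9 genes are protein coding and lie on different chromosomes of GRCm38, among them Mag at chr7:30899176-30914873, Mal at chr2:127633226-127656695, Pllp at chr8:94674894-94696278 and Mog at chr17:37010743-37023398, all on the minus strand. They share few exon bases with other genes in the GENCODE vM21 annotation, except that an antisense gene on the opposite strand overlaps 54.2% of the exon bases of Pllp. The strand setting of the counting was not stated, so that reads of Pllp and of this partner cannot be told apart. The RefSeq promoter table held windows for 8 of the 9 members. The stretch upstream of the start is shown for Mag, Mal and Pllp, which passed the adjusted threshold in the striatum. It is also shown for Mog, the only member past that threshold there with GCV in wild-type mice. All are in GRCm38.p6 and 5′ to 3′ on the gene's strand. Capitals mark matches to the core words of SOX factors (ACAAAG or ACAATG) and of MYRF (CTGGCAC or CTGGTAC), the oligodendrocyte transcription factors best known for driving myelin genes, on either strand.
Mag, chr7:30914923-30915172, minus strand: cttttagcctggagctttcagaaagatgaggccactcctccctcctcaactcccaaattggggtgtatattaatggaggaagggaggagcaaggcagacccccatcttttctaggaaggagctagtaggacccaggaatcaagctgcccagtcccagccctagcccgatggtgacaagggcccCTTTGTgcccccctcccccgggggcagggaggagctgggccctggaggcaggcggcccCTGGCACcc
Mal, chr2:127656696-127656945, minus strand: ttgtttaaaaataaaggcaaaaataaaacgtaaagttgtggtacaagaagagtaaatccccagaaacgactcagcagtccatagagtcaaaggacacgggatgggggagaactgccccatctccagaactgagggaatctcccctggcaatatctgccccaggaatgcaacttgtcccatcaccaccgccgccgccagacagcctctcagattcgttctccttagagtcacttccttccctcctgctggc
Pllp, chr8:94696279-94696492, minus strand: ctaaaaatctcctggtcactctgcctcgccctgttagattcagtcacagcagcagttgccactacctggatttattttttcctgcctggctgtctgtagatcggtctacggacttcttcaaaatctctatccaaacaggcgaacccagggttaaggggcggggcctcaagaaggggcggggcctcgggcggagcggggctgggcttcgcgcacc
Mog, chr17:37023399-37023648, minus strand: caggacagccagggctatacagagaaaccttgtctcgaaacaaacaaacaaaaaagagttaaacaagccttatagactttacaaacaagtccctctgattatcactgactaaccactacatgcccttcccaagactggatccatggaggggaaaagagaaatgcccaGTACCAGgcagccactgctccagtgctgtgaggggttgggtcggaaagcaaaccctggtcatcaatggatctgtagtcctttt

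Over the 250 bases before the start, a SOX word occurred in 4 of the 8 members (Mag, Mobp, Cnp and Opalin), beside 25.2% of all 32851 promoter windows of this length. Mobp held 6 of them, between 243 and 120 bases before its start. A MYRF word occurred in 3 of the 8 (Mag, Mog and Cnp), beside 5.93% of all windows, and none of these matches overlapped a SOX match. The words CAGCTG (E-box) and TATAAA, present in 13.0% and 12.4% of all windows, occurred in 0 of the 8, and GGGCGG, in 32.7% of all, in Cnp and Pllp. Mag and Cnp therefore held both kinds of word, and Mal and Pllp neither. Whether these words go with the differences between groups was not tested. A match is a run of letters and was not tested for binding.

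In the striatum, ablated mice were compared with the 10 controls by edgeR's quasi-likelihood fit, and p-values were adjusted (Benjamini-Hochberg) across the 15419 genes that passed the filter. All 9 members had estimates below 0, as did 49.5% of all genes, whose median was 0.004. At an unadjusted p-value of 0.05, 8 of 9 members were lower, against 5.31% of all genes. At an adjusted p-value of 0.05, 3 of 9 passed, against 0.182% of all genes. None reached the study's own rule of a p-value of at most 0.01 with at least a 2-fold change, which 0.694% of genes met, but Mag met it without A5 (-1.09) and with the mice of the higher number series alone (-1.02). In bulk tissue, fewer oligodendrocytes and less RNA per oligodendrocyte cannot be told apart.

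**Figure D1:**
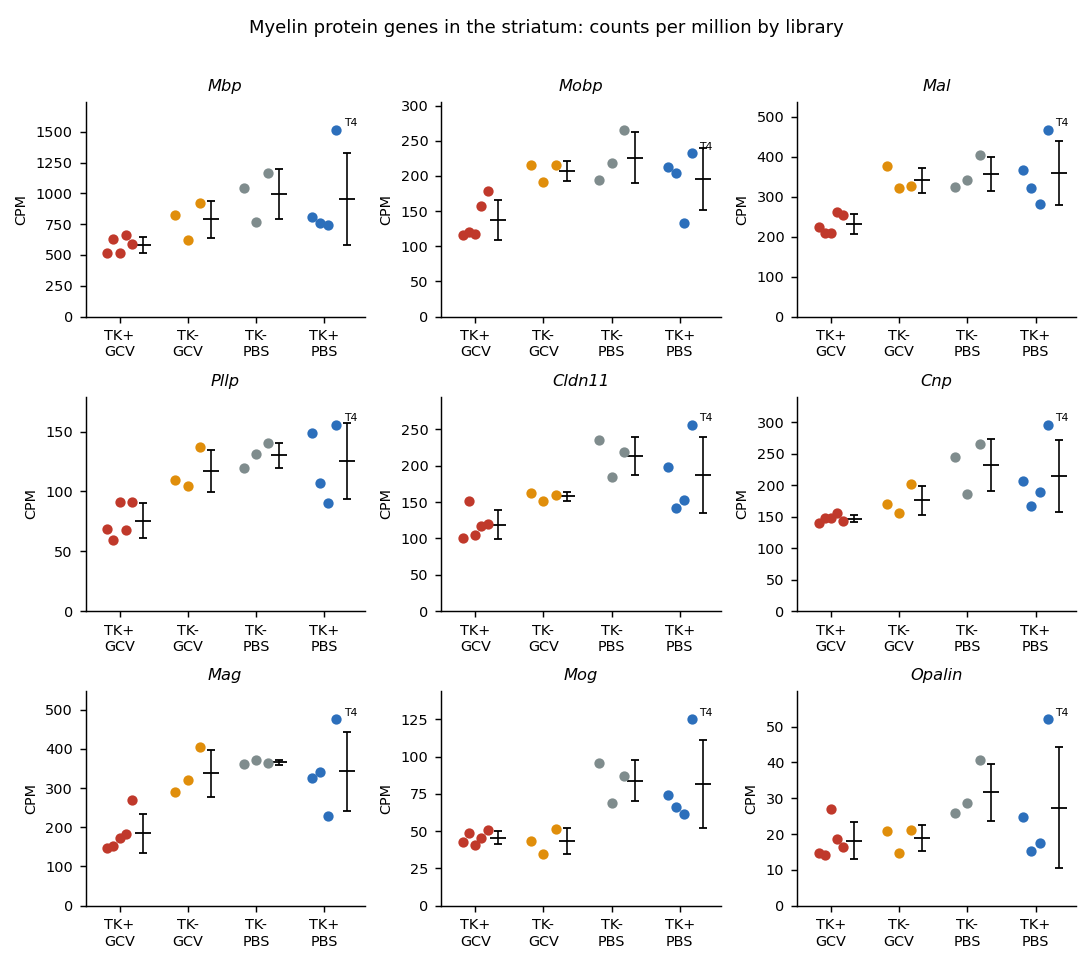
Normalised CPM of the 9 myelin protein genes in each striatum library (points), by genotype (TK+ or TK-) and treatment, with the mean ± SD of each group beside it; vertical axes start at 0. The 5 TK+GCV libraries are low for most genes, T4 is marked and is the highest library for all genes except Mobp, and for Mog and Opalin the TK-GCV group lies as low as the TK+GCV group.

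Among the compact myelin genes, Mbp was the most abundant. Its striatum level was 516, 627, 518, 660 and 587 CPM in A1 to A5. It was 827, 623 and 919 CPM in G1 to G3, 1047, 768 and 1164 in P1 to P3, and 806, 759, 747 and 1515 in T1 to T4. The ablated libraries thus lay at the low end of the range, overlapping with the control G2, and T4 stood alone at the top. Mbp had a log2 fold change of -0.66 ± 0.16 (fold changes are given with their standard error) and an adjusted p-value of 0.0902.

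Mal was at 224, 208, 209, 262 and 254 CPM in the ablated libraries. The controls gave 375, 320 and 326 CPM in G1 to G3, 325, 341 and 403 in P1 to P3, and 367, 323, 281 and 466.3 in T1 to T4. Every ablated library was below every control, which was also the case for Cnp and for 0.253% of all genes. Mal fell by 0.61 ± 0.12 on the log2 scale (adjusted p = 0.0368).

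Pllp, the other tetraspan proteolipid, was at 68.4, 59.5, 91.0, 68.1 and 91.1 CPM in A1 to A5. In the controls it was at 110, 105 and 137 CPM in the G libraries, 120, 131 and 140 in the P libraries and 149, 107, 90.1 and 156 in the T libraries. A3 and A5 overlapped only with T3. Pllp fell by 0.72 ± 0.14 on the log2 scale (adjusted p = 0.0380). Mobp and Cldn11 missed the adjusted threshold. Mobp was at 138 ± 28.4 CPM (SD, n = 5) against 208 ± 33.8 (SD, n = 10), a log2 fold change of -0.60 ± 0.14 (adjusted p = 0.0721). Cldn11 was at 119 ± 19.9 against 186 ± 39.6 CPM, with -0.65 ± 0.15 (adjusted p = 0.0634).

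Outside compact myelin, Mag had the largest difference of the 9. It was at 146, 153, 172, 183 and 270 CPM in A1 to A5. It was at 289, 320 and 404 CPM in G1 to G3, 361, 371 and 364 in P1 to P3, and 326, 340, 230 and 476 in T1 to T4. A5 was the only ablated library above a control, which was T3. Mag fell by 0.91 ± 0.15 on the log2 scale (adjusted p = 0.0117).

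Cnp varied least between ablated mice, with 140, 147, 148, 155 and 144 CPM. The controls ran from 156 to 296 CPM with a median of 195. Its log2 fold change was -0.51 ± 0.14, and although its groups did not overlap, its adjusted p-value was 0.127. Mog was at 45.7 ± 4.14 CPM (SD, n = 5) in ablated mice and 70.8 ± 26.6 (SD, n = 10) in controls, with a log2 fold change of -0.63 ± 0.22 (adjusted p = 0.280). Opalin, the lowest of the 9, was at 18.2 ± 5.23 against 26.1 ± 11.9 CPM, with -0.52 ± 0.26 (unadjusted p = 0.0574, adjusted p = 0.490).

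When a library was left out, the median difference moved little, while some single members and the calls moved more. The median log2 fold change over the 9 stayed between -0.68 and -0.55, with all 9 below 0 each time. Among single members, Opalin ranged from -0.70 to -0.36, Mag from -1.09 to -0.84 and Mal from -0.66 to -0.55. The number of members past the adjusted threshold was 0 without A1, A2, A3 or A4, 1 without P2 or T1, 6 without G2 and 5 without T4. Without T4, Mbp and Cldn11 joined the 3 others at -0.55 and -0.59 on the log2 scale (adjusted p = 0.0453 for each).

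The control groups were then separated, since GCV without the transgene and the transgene without GCV each have a group. These comparisons share libraries with each other, and the values are given side by side. In transgenic mice, GCV went with estimates below 0 for all 9 members in the striatum (48.7% of all genes), with a median of -0.66. All 9 passed an unadjusted p-value of 0.05, against 5.18% of genes lower, and Mag passed the adjusted threshold (log2 fold change -0.89 ± 0.18, adjusted p = 0.0430), against 0.149% of genes. Mog was lower by a similar amount (-0.84 ± 0.18, adjusted p = 0.0563). The number of adjusted calls depended on single libraries and on the tool. It was 0 without any 1 of A1 to A4, P1 to P3, T1 or T4 (adjusted p for Mag of at most 0.173), and 7 without T2 or T3. It was 0 with limma-voom, 6 with DESeq2 and 8 without the filter on low counts. The share of all genes was not computed under these settings.

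Between transgenic and wild-type mice that both received GCV, 8 of 9 members had estimates below 0, with a median of -0.44. Of these, 6 passed an unadjusted p-value of 0.05, against 7.74% of genes lower, and 3 the adjusted one, against 3.13% of genes. The 3 were Mag (-0.87 ± 0.19, adjusted p = 0.0164), Mal (-0.56 ± 0.15, adjusted p = 0.0388) and Pllp (-0.63 ± 0.18, adjusted p = 0.0497). Mog and Opalin stood apart from them, with 0.08 ± 0.20 and -0.06 ± 0.32. The count of 3 became 0 without A1, A2, G2 or G3, 1 without A3, G1 or T1, and 5 without T4.

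GCV in wild-type mice gave estimates below 0 for all 9 members (49.3% of all genes), with a median of -0.33. At an unadjusted p-value of 0.05, 4 were lower, against 9.08% of genes, and 1 passed the adjusted threshold, against 2.06%. That member was Mog, the surface protein of the outermost wrap. Mog was at 43.5, 34.5 and 51.7 CPM in G1 to G3 and at 95.8, 68.9 and 86.9 in P1 to P3. This difference was -0.95 ± 0.22 on the log2 scale (adjusted p = 0.0275). Opalin (-0.74 ± 0.34, adjusted p = 0.281), Cldn11 (-0.43 ± 0.19, adjusted p = 0.254) and Cnp (-0.40 ± 0.18, adjusted p = 0.267) made up the 4. Mag, Mal and Pllp were at -0.11 ± 0.22, -0.07 ± 0.17 and -0.15 ± 0.20. The call for Mog was lost without G1, G2, P1 or P3, with an adjusted p-value of at most 0.211. The count of 4 became 2 without G1 or P1 and 1 without G2 or P3. The G libraries also had the lowest summed levels of 8 ependymal genes in the striatum, at 14.5 to 17.5 CPM against at least 28.1 in all others, while cortical excitatory neuron genes were higher in them than in the P libraries. Of these 6 genes, 5 were higher at the unadjusted threshold, against 7.05% of all genes. At the adjusted one 2 were higher, where 2.06% of all genes passed in either direction. The median of the 6 was 4.15 (range 0.64 to 8.80). Their summed level was 2481 to 4385 CPM in the G libraries and 1659 to 2908 in the P libraries. The same genes had medians of -1.48 between transgenic and wild-type mice given GCV and -4.87 in the interaction. The part of both lists in the values of Mog and the other members was not tested. All P mice and 1 of 3 G mice were of the lower number series, so that this comparison could not be made within the higher one.

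**Figure D2:**
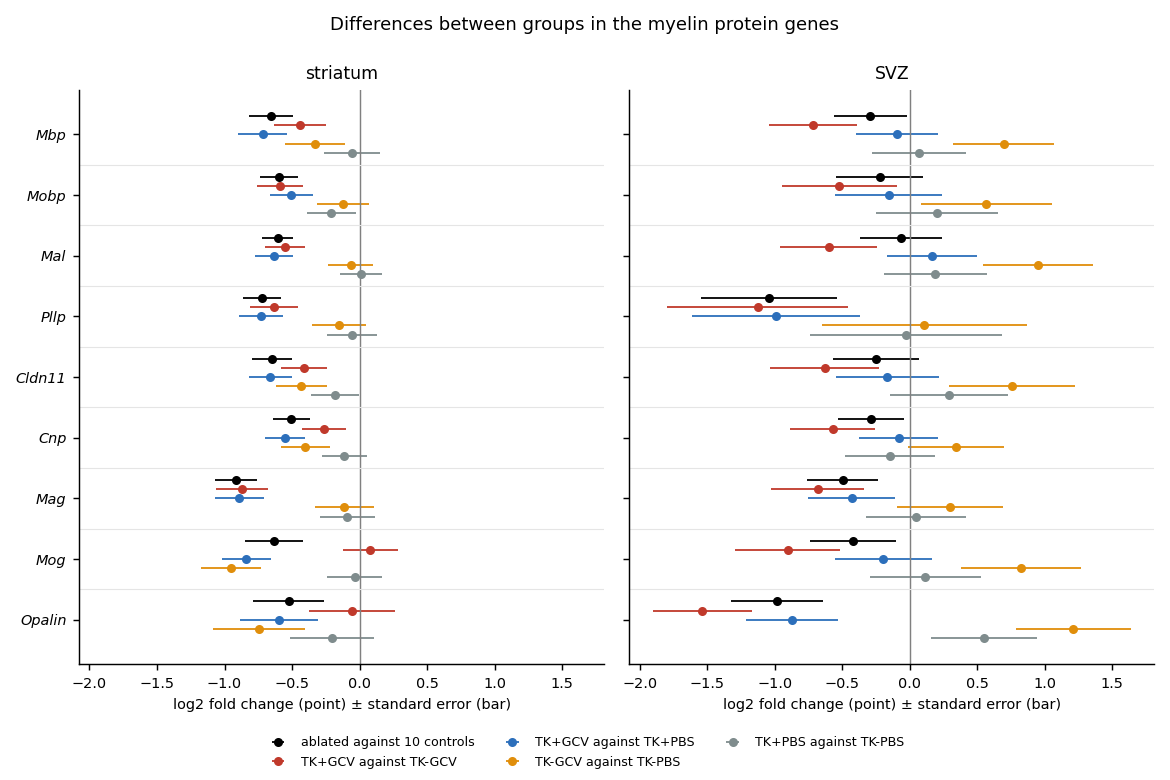
Log2 fold change (points) and standard error (bars) of each myelin protein gene in 5 comparisons, striatum on the left and SVZ on the right. In the striatum Mag, Mal and Pllp lie near 0 where GCV is compared in wild-type mice (orange), Mog lies at -0.95 there, and in the SVZ the orange points are above 0 for all 9 genes.

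The transgene under PBS gave a median of -0.09 in the striatum, and 0 of 9 members passed an unadjusted p-value of 0.05 as lower by edgeR, DESeq2 or limma-voom, against 2.46% of genes. This count rested on T4. Without T4, 4 members were lower at that p-value, namely Opalin (-0.72), Cldn11 (-0.37), Mbp (-0.37) and Cnp (-0.31), with adjusted p-values of at least 0.688. The share of 2.46% belongs to the fit with T4, and that without T4 was not computed.

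The interaction asks whether the difference with GCV was larger in transgenic than in wild-type mice. In the striatum, Mag (-0.78 ± 0.28), Mal (-0.57 ± 0.22) and Pllp (-0.58 ± 0.26) passed an unadjusted p-value of 0.05, which 6.65% of genes did in that direction. None of the 9 passed the adjusted threshold by edgeR with the filter, by DESeq2 or by limma-voom, which 0.817% of genes did by edgeR, and the lowest adjusted p-value was 0.176, for Mag. Without the filter on low counts, where the share of all genes was not computed, Mag passed (-0.78, adjusted p = 0.0203). The median over the 9 was -0.38 and became -0.08 without T4.

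Other genes of oligodendrocytes mostly had estimates in the same direction in the striatum. Beside the counts that follow, 49.5% of all genes had estimates below 0, and 5.31% were lower at an unadjusted p-value of 0.05. Of 13 other myelin membrane genes, all 13 had estimates below 0 in ablated mice (median -0.48), and 7 passed an unadjusted p-value of 0.05. Ermn, a cytoskeletal protein of the outer myelin, fell by 0.77 ± 0.15 on the log2 scale (adjusted p = 0.0380). All 8 genes of a myelin lipid list had estimates below 0 (median -0.46, 3 at the unadjusted threshold). They were led by Ugt8a, which makes galactosylceramide (-0.78 ± 0.18, adjusted p = 0.0673), and Cers2, a ceramide synthase (-0.39 ± 0.14). Of 10 oligodendrocyte transcription factor genes, 9 were below 0 (median -0.42) and 5 passed the unadjusted threshold. The regulators with the lowest p-values were Myrf (-0.91 ± 0.25, adjusted p = 0.127) and Nkx6-2 (-0.69 ± 0.20, adjusted p = 0.176). Of 10 genes of oligodendrocyte precursors, 7 were below 0 (median -0.21) and none passed the unadjusted threshold by edgeR, with Matn4 at -0.27 ± 0.16 and Enpp6 at -0.48 ± 0.29. Of 3 peripheral myelin genes that passed the filter, 1 passed the unadjusted threshold, Pmp22 (-0.73 ± 0.20, adjusted p = 0.151), and Ncmap was at -1.18 ± 0.62 (adjusted p = 0.531).

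**Figure D3:**
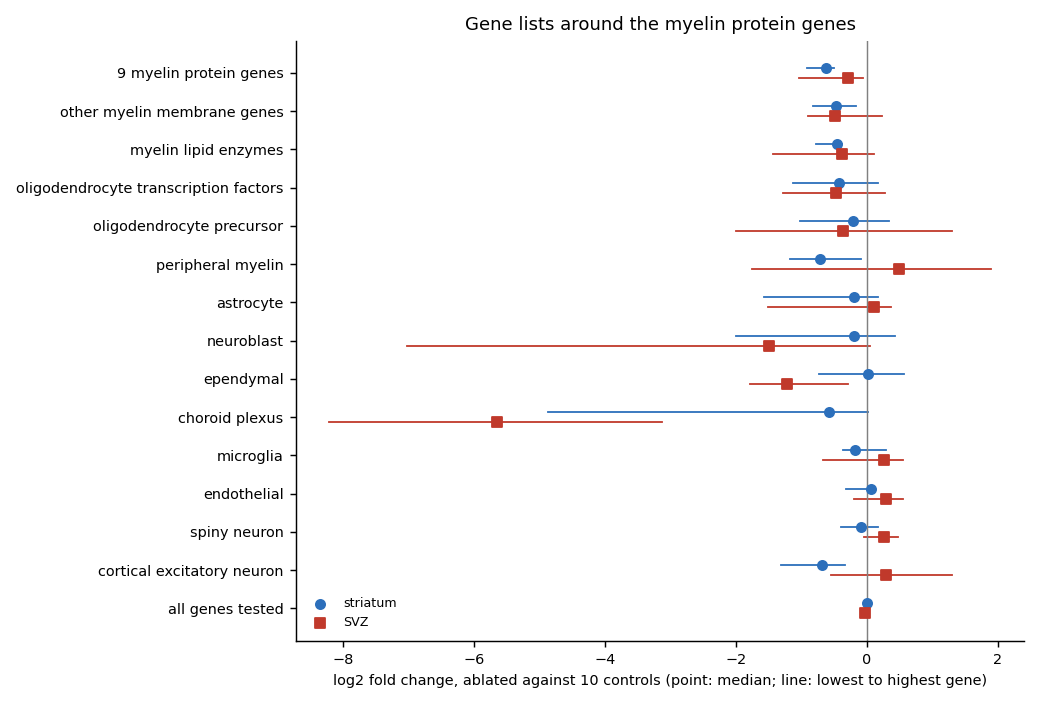
Median log2 fold change (points) and range (lines) of each gene list in ablated mice against the 10 controls, in the striatum (blue circles) and the SVZ (red squares), with the median of all genes tested in the last row. In the striatum the first 4 lists (central myelin genes and oligodendrocyte transcription factors) have medians of -0.63 to -0.42. Oligodendrocyte precursors are at -0.21, peripheral myelin at -0.73 and cortical excitatory neurons at -0.70.

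Markers of other cells also differed in the striatum, and their part in the myelin result was not tested. The shares of all genes beside these counts are again 49.5% below 0 and 5.31% lower at the unadjusted threshold. All 6 cortical excitatory neuron genes had estimates below 0 (median -0.70), with 1416 to 2256 CPM summed in ablated mice and 990 to 4385 in controls, and 1 passed the unadjusted threshold, Nrgn (-0.49 ± 0.22, adjusted p = 0.435). Slc17a7 was at -1.31 ± 0.90 (adjusted p = 0.647). T4 had the highest summed level of the 9 myelin genes (3575 CPM) and the lowest summed level of the cortical neuron genes (990 CPM). Of 10 astrocyte genes, 9 were below 0 (median -0.19), with 4520 to 5374 CPM summed against 4859 to 5990. Gfap was at -1.57 ± 0.37 (adjusted p = 0.0736) and S100b at -0.40 ± 0.12 (adjusted p = 0.189). The 10 spiny neuron genes had a median of -0.09, the 8 microglia genes -0.19 and the 6 endothelial genes 0.06, with 1, 1 and 0 members at the unadjusted threshold, which were Adora2a and C1qa. Of 6 choroid plexus genes tested, 5 were below 0, Ttr among them, and without T4 the controls held 13.1 to 53.9 CPM against 15.5 to 34.9 in ablated mice. The 8 ependymal genes had a median of 0.02 and the 9 neuroblast genes -0.20, with Nrep and Igfbpl1 past the unadjusted threshold.

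In the SVZ the libraries were made from whole transcripts, and levels of the members were set side by side per kilobase of exon. The length was that of the merged exons of all annotated transcripts, such as 8.469 kb for Mbp, 6.849 kb for Mobp and 1.704 kb for Mog. The order depends on these lengths, and the length of the transcripts expressed was not measured. Mbp led with 235 ± 110 CPM per kilobase (SD, n = 10 controls), and was above Cnp in 15 of 15 libraries. Cnp (122 ± 46.3), Cldn11 (116 ± 55.3) and Mal (113 ± 59.0) followed and did not differ beyond their spread. Mog (48.4 ± 20.0), Mag (40.9 ± 15.5) and Mobp (36.2 ± 18.4) formed the next group, below Mal in 15 of 15 libraries in the case of Mog, and Mag was above Mobp in 9 of 15. Opalin (19.2 ± 8.84) and Pllp (10.1 ± 6.38) were the lowest. The ablated libraries kept Mbp first and Opalin and Pllp last, with 192 ± 46.2, 9.72 ± 2.82 and 4.91 ± 2.97 CPM per kilobase (SD, n = 5).

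**Figure D4:**
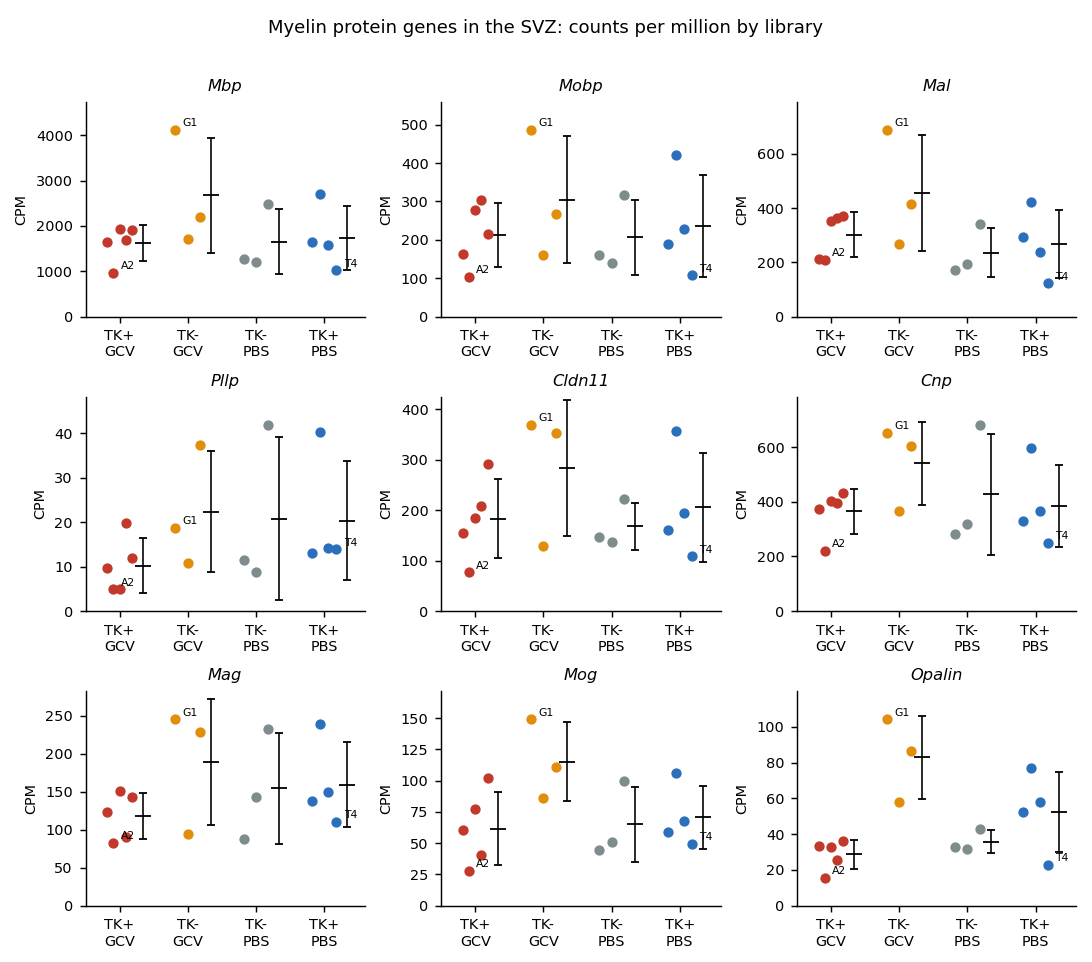
Normalised CPM of the 9 myelin protein genes in each SVZ library (points), by genotype and treatment, with the mean ± SD of each group; vertical axes start at 0 and the libraries A2, G1 and T4 are marked. Ablated libraries overlap with the controls for every gene, A2 is the lowest library for 8 of the 9 and G1 the highest for 7.

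Between ablated mice and the 10 controls in the SVZ, all 9 members had estimates below 0, against 51.9% of the 16375 genes tested, whose median was -0.03. Opalin was the only member past an unadjusted p-value of 0.05, against 6.09% of genes lower, and by edgeR, DESeq2 or limma-voom none passed the adjusted one, which 0.00611% of genes did by edgeR. The count of 1 became 0 with limma-voom (Opalin at -0.86), 2 with DESeq2 or without the filter, and 3 with total counts alone. None met the rule of a p-value of at most 0.01 with at least a 2-fold change (1.59% of genes). Opalin, just short of 2-fold, met the rule with total counts alone (-1.10), without the filter (-1.02), without the Ttr-rich libraries (-1.17) and without any 1 of P1, P2, P3, A5 or T4. In no member was every ablated library below every control (0.147% of genes). Opalin was at 33.4, 15.6, 32.7, 25.3 and 36.2 CPM in A1 to A5. It was at 104, 58.2 and 86.7 CPM in G1 to G3, 33.0, 31.5 and 43.0 in P1 to P3, and 52.3, 76.9, 57.8 and 22.9 in T1 to T4. The ablated libraries overlapped with P1, P2 and T4 and lay below all G libraries. Its log2 fold change was -0.98 ± 0.34 (adjusted p = 0.385). Mitochondrial transcripts took 13.1% to 17.0% of the counts of the ablated SVZ libraries, 15.2% of those of G2 and 6.69% to 12.9% of those of the 9 other controls, and their part in the SVZ values was not tested.

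Pllp had the lowest estimate in the SVZ, with a log2 fold change of -1.04 ± 0.50 (adjusted p = 0.518) and 10.2 ± 6.19 CPM (SD, n = 5) against 21.1 ± 13.3 (SD, n = 10). Mag was at -0.50 ± 0.26, Mog at -0.42 ± 0.32, Mbp at -0.29 ± 0.27, Cnp at -0.29 ± 0.24, Cldn11 at -0.25 ± 0.32, Mobp at -0.22 ± 0.32 and Mal at -0.07 ± 0.31. The direction of Mal did not hold: it became 0.09 with limma-voom, and 0.05, 0.04 and 0.14 without A1, A2 and G1. The standard errors of the 9 members were 0.24 to 0.50 in the SVZ and 0.12 to 0.26 in the striatum, and the common biological coefficient of variation over all genes was 0.939 and 0.251. The count of members at the unadjusted threshold became 3 without G2, P1 or T4, and 2 without P2, A4 or T1. Without the 3 Ttr-rich libraries it was 3, and all 9 were again below 0.

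Between transgenic and wild-type mice given GCV, all 9 members had SVZ estimates below 0 (47.7% of all genes), with a median of -0.68. At an unadjusted p-value of 0.05, 3 were lower, against 3.27% of genes, namely Opalin (-1.53 ± 0.37), Mog (-0.90 ± 0.39) and Mbp (-0.72 ± 0.33), all with an adjusted p-value of 0.665 by edgeR. Opalin passed the adjusted threshold with DESeq2 (-1.51, adjusted p = 0.0419) and was the 1 member at the rule of a p-value of at most 0.01 with a 2-fold change, which 0.94% of genes met. The count of 3 was 1 without G1, A1 or A2, 2 without G3 or A4, and 7 without G2. In transgenic mice, GCV went with a median of -0.17, and Opalin alone passed (-0.87 ± 0.34, adjusted p = 0.626), against 4.4% of genes lower. Without T2 this count was 0 and the median 0.21.

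GCV in wild-type mice went the other way in the SVZ. All 9 estimates were above 0, where 51.8% of all genes were below, with a median of 0.70, and Opalin (1.21 ± 0.42) and Mal (0.95 ± 0.41) passed an unadjusted p-value of 0.05, against 2.93% of genes higher (adjusted p = 0.646 for each). The median became 0.09 without the Ttr-rich libraries, which leaves 1 library (P3) in the PBS group. The transgene under PBS had a median of 0.12, and 0 of 9 were lower at the unadjusted threshold by edgeR, against 0.953% of genes. Its direction did not hold: 2 of 9 members were below 0, but 8 of 9 without the Ttr-rich libraries (median -0.43) and 8 of 9 without T2 (median -0.22). The interaction was below 0 for all 9 (48.5% of genes) with a median of -0.79, and Opalin passed the unadjusted threshold (-2.09 ± 0.54, adjusted p = 0.942), against 2.36% of genes lower, and met the 2-fold rule, against 0.837% of genes. Without the Ttr-rich libraries the median of the interaction was -0.21.

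In the SVZ the lists around the 9 genes had medians below 0, with no adjusted call. Of all genes, 51.9% had estimates below 0 and 0.00611% passed the adjusted threshold. Of the other myelin membrane genes, 11 of 13 were below 0 (median -0.49), led by the small heat shock protein Cryab (-0.81 ± 0.24, adjusted p = 0.347) and the tetraspanin Cd9 (-0.90 ± 0.33, adjusted p = 0.385). Of the myelin lipid genes, 6 of 8 were below 0, with Elovl7 at -1.43 ± 0.63 and Fa2h at -0.43 ± 0.27. Of the transcription factors, 8 of 10 were below 0, with Nkx6-2 at -1.28 ± 0.62 and Myrf at -0.57 ± 0.47. All 8 ependymal genes had estimates below 0 (median -1.23), with sums of 28.8 to 232 CPM in ablated mice and 79.8 to 351 in controls. All 9 choroid plexus genes were also below 0 (median -5.65), but this rested on P1, P2 and T1, whose sums were 47077 to 103962 CPM. The other 7 controls held 15.8 to 800 CPM and the ablated libraries 18.5 to 257, so that these overlapped. The medians were -1.49 for the neuroblast list and -0.36 for oligodendrocyte precursors, and 0.11 for astrocytes, 0.25 for microglia, 0.29 for endothelium, 0.26 for spiny neurons, 0.29 for cortical neurons and 0.48 for the 4 peripheral myelin genes tested. Their part in the SVZ values of the myelin genes was not tested.

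The difference between tissues was tested within mice, as the SVZ minus the striatum log2 CPM of each mouse, over 14197 genes tested in both (limma). No member passed an unadjusted p-value of 0.05, which 10.1% of genes did. The largest difference was for Mal, whose change was 0.65 ± 0.38 higher in the SVZ than in the striatum (adjusted p = 0.600), and Opalin had -0.46 ± 0.54 (adjusted p = 0.817). Standard errors of these differences were 0.34 (Mag) to 0.54 (Opalin).

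The 9 genes varied together between libraries. Over the 36 pairs of members, Pearson's r of log2 CPM across the 15 libraries was 0.55 to 0.96 (median 0.78) in the striatum and 0.45 to 0.93 (median 0.80) in the SVZ. These points share library depth and tissue composition, and the striatum values include the difference between groups. Relative to the mean of the other 8, Cnp (SD of log2 CPM 0.14 in the striatum and 0.18 in the SVZ) and Mbp (0.16 and 0.20) varied least, and in the striatum Opalin (0.36) and Mog (0.31) varied most. Relative to the other 8, Mag was 0.35 lower in ablated mice than in controls in the striatum, and Mbp was at -0.002. The SVZ had its largest relative spread in Pllp (0.71).

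**Figure D5:**
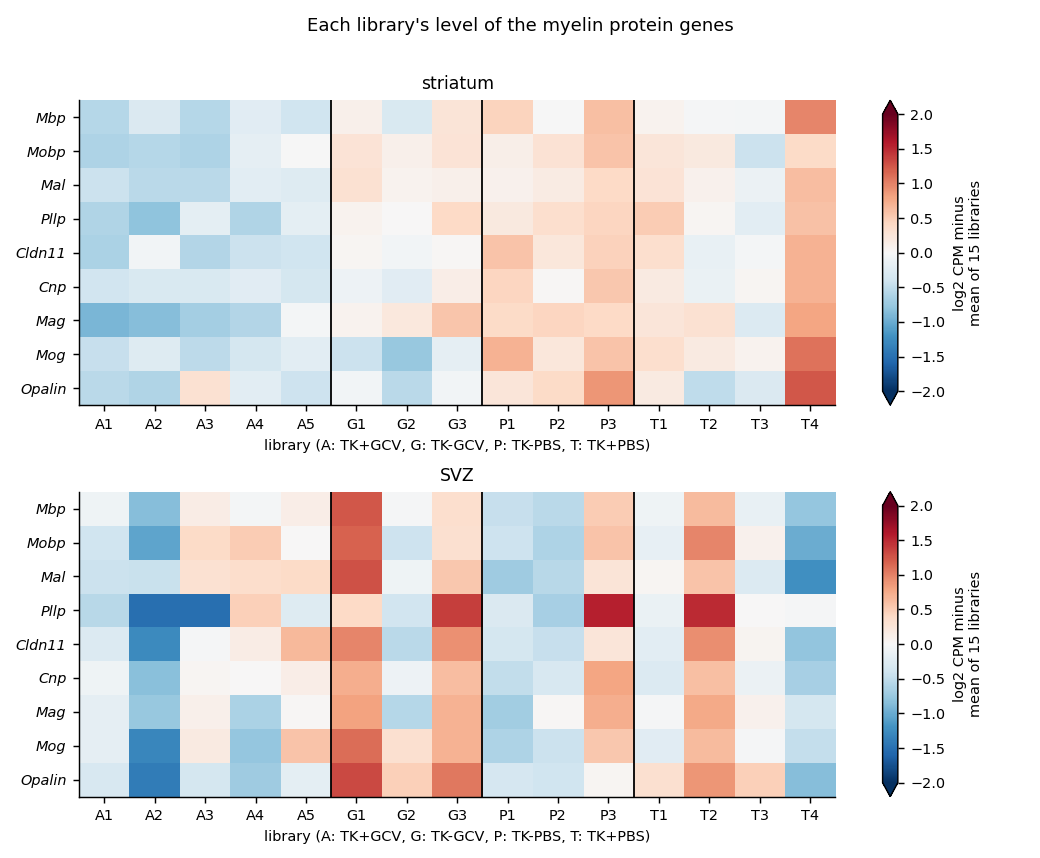
Log2 CPM of each myelin protein gene minus its mean over 15 libraries (colour), for each library in the striatum (top) and the SVZ (bottom); black lines separate the groups. Columns tend to have a single colour: T4 is high for all genes in the striatum and low or near the mean in the SVZ, and A2 is low for all genes in the SVZ.

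The libraries that stood out differed between tissues. In the striatum A1 was among the 3 lowest libraries for all 9 members and T4 among the 3 highest for all 9. In the SVZ, T4 had the second lowest mean over the 9, after A2, and G1 and T2 were each among the 3 highest for 8. The other genes whose log2 CPM followed the 9 most closely in the striatum, by mean Pearson's r over 15 libraries, were Ermn (0.87), Gpr37 (0.85), Car14 (0.85), Bcas1 (0.85) and Grb14 (0.84), with log2 fold changes of -0.77, -0.80, -0.90, -0.81 and -0.62 in ablated mice. In the SVZ, Gatm (0.82), Tmem88b (0.79), Trf (0.79) and Ppp1r14a (0.78) were among the closest, with log2 fold changes of -0.58, -0.57, -0.63 and -0.43. In both tissues these genes were picked over ablated and control libraries together, so the difference between groups entered the choice. Their fold changes are therefore no independent result.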

How the data were processed

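RNA-seq was performed on SVZ and striatum of 15 mice, each giving a library per tissue. The authors deposited counts per gene without normalization, and groups were taken from the labels. Per the labels and the study's methods, the SVZ kit was SMART-Seq v4 (whole transcripts, 10 cycles) and the striatum kit QuantSeq 3′ FWD (3′ tags). The submitters' processing notes name Trimmomatic 0.36, STAR 2.5.3a, featureCounts and GRCm38; the counting strand is not given in the sources used here. The filter kept genes above 1 CPM in 3 or more libraries of a tissue. Counts were scaled with TMM factors and fitted per tissue with edgeR 4.0.16 (quasi-likelihood, R 4.3.3), with the ablated group against 10 controls, and with 4 groups for the remaining contrasts. P-values were adjusted by Benjamini-Hochberg over all genes tested. Standard errors are the absolute log2 fold change divided by the square root of F. Log2 CPM used a prior count of 2, and the difference between tissues was fitted with limma 3.58.1. The scripts were tested on simulated data. Depth was 2626962 to 4693441 counts in the striatum and 8360810 to 21056005 in the SVZ. How much of the spread between replicates came from counting was not measured.

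The members and lists were chosen with earlier results of these data known. Genes are named from all 9 members, the 2 genes of each other list with the lowest p-value, and the 5 genes per tissue with the highest mean correlation with the members; 2 genes that these rules name are not reported here. Names A, G, P and T follow accession order within a group. Library numbers 1 to 10 belong to GCV mice and later ones to PBS mice, so GCV and numbering cannot be told apart. Alternatives were median-of-ratios size factors, total counts alone, no filter, DESeq2 1.42.0, limma-voom, each library left out, the mice of the higher number series alone, and no SVZ library over 1% Ttr.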

Additional observations from a re-analysis of the deposited data

Results flagged for a closer look

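In 54 groups of libraries, formed by the 9 genes, 2 tissues and 3 groups (ablated, NestinTK+PBS+ and pooled controls), the highest or lowest library was compared with its nearest neighbour on the log2 scale. Its gap exceeded Dixon's 95% limit as a share of the group's range in 5, where chance gives about 2.7. In the striatum, Mbp of T4 lay at 1515 CPM against 806 for the next NestinTK+PBS+ library (share 0.893), and Mobp of T3 lay at 133 CPM, below 191 for the next control (0.525). In the SVZ, A2 lay below the other ablated libraries in Mbp, at 965 against 1642 CPM (0.772), and in Cnp, at 221 against 372 CPM (0.781). Pllp of T2 in the SVZ lay at 40.4 CPM against 14.2 for the next NestinTK+PBS+ library (0.919). T4 in the striatum is the library with 0.142% of counts in Ttr, and its part in the level of Mbp was not tested. By edgeR with the filter on low counts, no interaction of genotype and treatment passed an adjusted p-value of 0.05 in any member, while without the filter that of Mag in the striatum did (-0.78, adjusted p = 0.0203). By limma, no difference between tissues passed it.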

How the results depend on the processing

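Over 908 recomputed values of 43 results, 788 kept their direction and their side of the threshold or moved by less than the spread. With DESeq2, without the filter, and with the mice of the higher number series alone, the 3 members past an adjusted p-value of 0.05 in the striatum became 7, 5 and 1. With 1 library left out they ranged from 0 to 6. Shares of all genes were not computed for any of the alternatives, so the counts of members have none beside them. For the transgene under GCV the 3 became 1 with total counts alone and 1 with the mice of that series, and 0 to 5 with a library left out. With GCV in transgenic mice the 1 adjusted call became 8 without the filter, 6 with DESeq2, 0 with limma-voom and 2 with the mice of that series, and 0 to 7 with a library left out. Members lower at the unadjusted threshold with GCV in wild-type mice ranged from 1 to 5 with a library left out. The median of the striatum interaction ranged from -0.51 to -0.075. In the SVZ, without Ttr-rich libraries, the median with GCV in wild-type mice became 0.086 and that of the interaction -0.21, and Mal in ablated mice became 0.091 with limma-voom and ranged from -0.16 to 0.14 with a library left out. The cause was not tested, beyond the smaller number of mice in fits that leave some out. The groups could not be compared in pairs, because they hold different mice and the labels give no replicate numbers. Only the tissues were paired, by mouse. Depth limits the lowest members most, Opalin in the striatum and Pllp in the SVZ. GCV in wild-type mice, the transgene under PBS and the interaction were not run with the higher number series, which holds 0 of 3 NestinTK-PBS+ mice.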
